A study of Mus musculus with 6 samples.

Results

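Nuclear genes for subunits of the 5 complexes of oxidative phosphorylation are described here in hippocampal astrocytes of the mouse. Members were chosen by name alone, as every listed gene whose symbol starts with Nduf followed by a, b, c, s or v, with Uqcr, with Cox followed by a digit from 4 to 8, or with Atp5, together with Sdha, Sdhb, Sdhc and Sdhd. The rule reads the symbol and no measured value. This gave 92 of the 24421 genes listed, of which 81 encode subunits and 11 do not (7 complex I assembly factors of the Ndufaf group, Cox7a2l, Ndufa4l2, Atp5s and Atp5sl). Nuclear subunits with other names, such as Cyc1 of complex III, are not members, and counts, sums and ranks within a complex below are over its members. The 13 subunits that the mitochondrial genome encodes were not analysed here.

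Astrocytes were taken from the hippocampus of adult male C57BL/6 mice that were Siglech dtr/dtr, which carry the diphtheria toxin receptor in both copies of the gene for Siglec-H, a protein found mainly on microglia. The animals received an intraperitoneal injection of PBS or of diphtheria toxin (DT, 50 µg/kg) and were sampled 2 days later, and 3 libraries of each treatment were made in 3 independent experiments, with RNA of 2 mice pooled per library. Controls carried the same alleles, which lower Siglec-H itself. Astrocytes were bound by antibody against the surface antigen ACSA-2 after removal of myelin and of CD11b+ cells, so the comparison asks how astrocyte RNA differed when microglia had been ablated. RNA was sequenced with a strand-specific kit, and between 21704891 and 32933975 reads were assigned to genes per library. Astrocyte markers summed to between 26462 and 28829 TPM (a share of all transcripts, corrected for transcript length and scaled to a fixed total) in each library, while Siglech had 21, 71 and 42 reads after PBS and none after DT. Markers of other cells were present at lower levels, and some differed between the groups. All 5 ependymal markers had higher means after DT (summed 380 to 501 TPM after PBS and 509 to 897 TPM after DT), as had all 5 markers of border-associated macrophages (12.6 to 21.9 TPM and 51.4 to 66.4 TPM). All 9 microglia markers had lower means (172 to 211 TPM and 92.4 to 109 TPM), as had all 6 endothelial markers (593 to 933 TPM and 507 to 597 TPM). The choroid plexus list, led by Ttr, ranged from 99.9 to 2020 TPM in the PBS libraries and from 1245 to 3421 TPM in the DT libraries, and its 5 genes all had higher means after DT. No marker of any list was at 0 in all libraries. The part of these cells in the values below was not tested, and in bulk RNA fewer cells of a type and less RNA per cell cannot be told apart.

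Oxidative phosphorylation passes electrons from NADH (at complex I) and succinate (at complex II) through ubiquinone to complex III, then through cytochrome c to complex IV, where oxygen is reduced to water. Complexes I, III and IV pump protons across the inner mitochondrial membrane, and complex V, the ATP synthase, uses their return to make ATP. Astrocytes are known for strong glycolysis, and they also respire and oxidize fatty acids in their mitochondria.

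Most members were abundant transcripts in astrocytes of both groups, a few isoforms were near 0, and no member was called higher or lower after DT. A mean of at least 0.5 CPM (reads per 1e6 of a library size that the authors scaled by TMM factors) was required for testing, and 88 members passed, 77 of them subunits. With limma on log2(CPM + 0.1), 0 of the 88 members reached an adjusted p-value under 0.05, beside 0.713% of the 15137 genes tested (0.555% higher and 0.159% lower after DT). At an unadjusted p-value under 0.05 there was 1 member, Uqcrc1, or 1.14% of members, beside 10.4% of all genes tested. The quasi-likelihood and exact tests of edgeR and the test of DESeq2, run on read counts, also called 0 members each, and in none of these did a member have an unadjusted p-value under 0.05. The astrocyte gene Gfap, by comparison, was at 1109 ± 131 TPM in the PBS group and 4238 ± 324 TPM in the DT group (SD, n = 3 each), a called rise.

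The differences of the members were small in either direction. The median log2 fold change of DT over PBS was -0.04 over the 88 members and -0.005 over all genes tested, and the members lay between -0.18 and 0.41. The median size of the difference, without regard to sign, was 0.06 for members and 0.11 for all genes. Members were also more abundant, with a median at the 95th percentile of level among genes tested. Other lists, described below, with a median percentile from 89.2 to 96.9 had sizes from 0.03 (membranes and import) to 0.08 (glycolysis). Lists at 51.4 to 72.6 had 0.06 to 0.15. The part of level in these sizes, and in the shares set beside all genes, was not tested. Of the members, 28 had a higher and 60 a lower mean after DT (31.8% above 0, beside 48.7% of all genes tested, and 68.2% below 0, beside 51.3%). The difference was smaller than the pooled SD between replicates for 61 of the 88 members (69.3%, beside 62.3% of all genes).

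The range of differences that the data allow for each member was read from the 95% confidence intervals of the limma fit. These are per gene and not adjusted for the number of genes tested, so they are not the limits of what a call would detect. The interval of 78 members lay within 0.5 of 0 on the log2 scale (88.6%, beside 59.7% of all genes tested), and that of 87 members within 1 (98.9%, beside 86% of all genes). The exception at the wider limit was Cox7a1, with an interval from -0.24 to 1.05. The other 9 members with an interval reaching past 0.5 were Atp5e, Atp5k, Atp5s, Cox6b2, Ndufa1, Ndufa4l2, Ndufaf6, Ndufb4 and Ndufs5. The median interval reached 0.20 to either side of its estimate. Read depth behind a tested member was between 20 and 36319 reads per library, with a median member at 940 to 1446 reads.

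**Figure D1:**
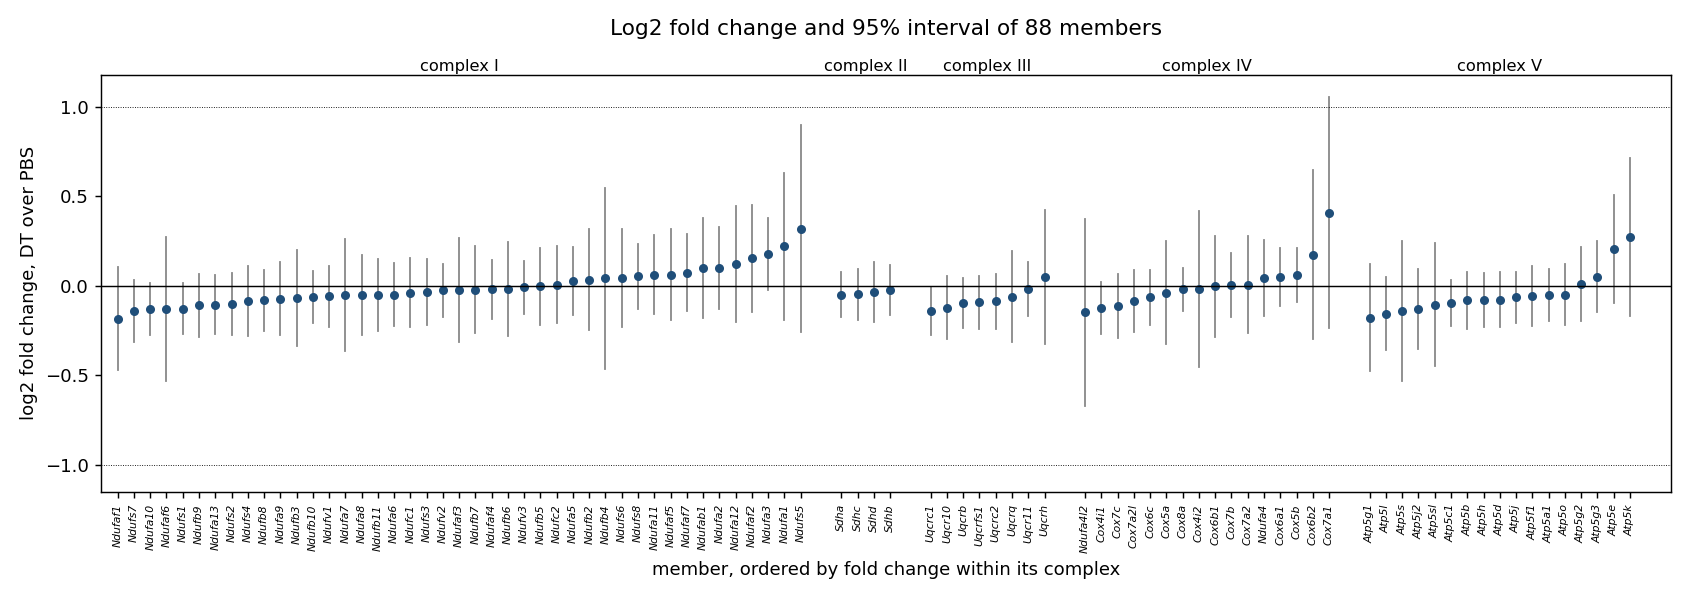
Log2 fold change of DT over PBS (vertical axis, log2(CPM + 0.1) scale) for each of the 88 tested members, grouped by complex and ordered by value. Points are estimates and bars 95% confidence intervals of the limma fit, dotted lines mark -1 and 1, and the points lie between -0.18 and 0.41.

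Levels, by contrast, differed widely between members. Among the 88 tested members, the mean level ran from 9.64 TPM for Cox7a1 to 1683 TPM for Atp5b, a 175-fold range, with a median of 195 TPM, and 95% of the genes tested lay below the median member. The 7 assembly factors of complex I were at a median of 29.1 TPM, below the median of 176 TPM for the 36 subunits of the same complex. Subunits of complex V had the highest median, 353 TPM, followed by complex III with 304 TPM, complex IV with 243 TPM and complex II with 215 TPM. Annotated transcripts of members are short, with a median of 711 bases for the 87 that have a length, beside 2206 over all genes tested. A gene's length here is the median over its annotated transcripts, protein-coding ones where it has any, and these need not be the ones expressed.

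**Figure D2:**
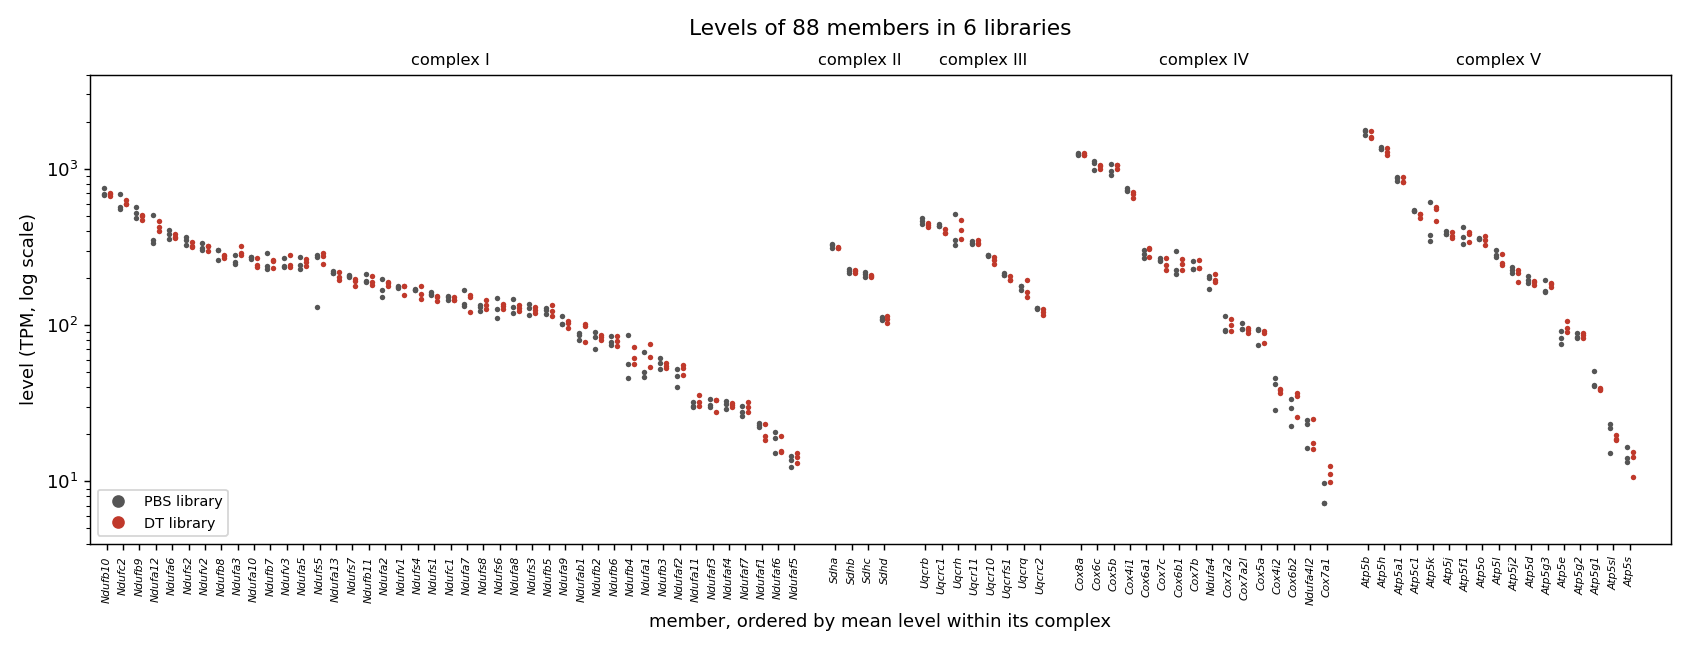
Level in TPM (vertical axis, log scale) of each of the 88 tested members in 3 PBS libraries (grey points) and 3 DT libraries (red points), grouped by complex and ordered by mean level. The groups lie over or beside each other for nearly every gene, from Cox7a1 at 9.64 TPM to Atp5b at 1683 TPM, and the PBS 1 point of Ndufs5 stands apart at 130 TPM.

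Summed over its subunits, each complex had nearly the same level in both groups. Complex I summed to 7481, 7638 and 8482 TPM in PBS libraries 1, 2 and 3 and to 7923, 7691 and 7887 TPM in DT libraries 1, 2 and 3, so that the DT libraries lay inside the PBS range. Complex II, the smallest with 4 genes, summed to 880, 862 and 858 TPM after PBS and to 852, 853 and 846 TPM after DT. These do not overlap, but the ratio of means was only 0.981. Complex III was at 2430 ± 131 TPM in the PBS group and 2334 ± 55.9 TPM in the DT group (SD, n = 3 each), complex IV at 5534 ± 129 TPM and 5494 ± 118 TPM, and complex V at 7144 ± 211 TPM and 6979 ± 161 TPM, with overlapping groups in each. On the log2 scale the ratio of sums was -0.006 for complex I, -0.03 for complex II, -0.06 for complex III, -0.01 for complex IV and -0.03 for complex V. All members together made up between 2.35% and 2.54% of the TPM of a library. Sums are given as a description, with no test.

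**Figure D3:**
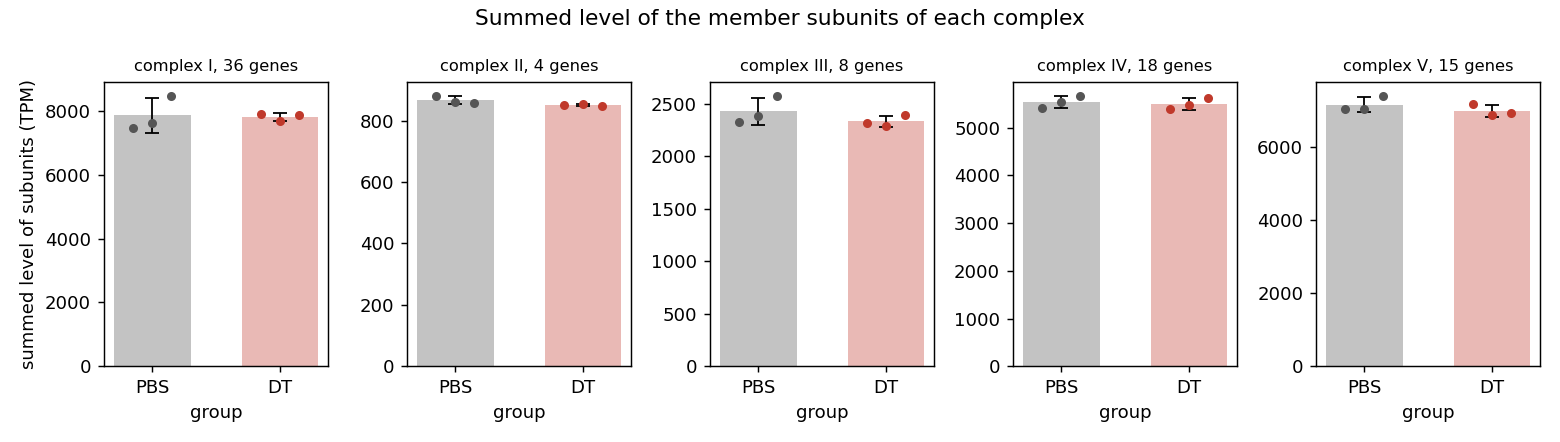
Summed level in TPM (vertical axes, each from 0) of the member subunits of complexes I to V in the PBS group and the DT group. Bars are means, error bars SD of 3 libraries and points single libraries, and only in complex II do the points of the groups not overlap, at 858 TPM or above after PBS and 853 TPM or below after DT.

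Complex I takes electrons from NADH. Its 7 nuclear core subunits hold the flavin and the iron-sulfur clusters, its other core subunits are encoded in the mitochondrial genome, and supernumerary subunits surround them. Of 36 nuclear subunits, 13 had a higher and 23 a lower mean after DT, the median log2 fold change was -0.03 and 0 were called. The core subunits had 1 higher and 6 lower means. Ndufv1, which binds NADH and the flavin, was at 176, 174 and 178 TPM in the PBS libraries and 178, 178 and 156 TPM in the DT libraries. DT 3 was the lowest of these and the other 5 were alike, with a log2 fold change of -0.06 (95% interval -0.23 to 0.11). Ndufs1, which carries iron-sulfur clusters, was at 164, 157 and 157 TPM after PBS and 151, 152 and 142 TPM after DT. Here every DT library was below every PBS library, with a log2 fold change of -0.13 (SE 0.06, limma adjusted p = 0.523). Ndufs7, which holds the cluster that hands electrons to ubiquinone, was at 209, 206 and 203 TPM after PBS and at 197, 177 and 191 TPM after DT. The groups did not overlap here either, and the log2 fold change was -0.14 (SE 0.08, limma adjusted p = 0.576).

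Among supernumerary subunits of complex I, Ndufa10 was at 272, 274 and 263 TPM after PBS and at 242, 268 and 237 TPM after DT. By CPM, on which the test ran, all DT libraries were below all PBS libraries, with a log2 fold change of -0.13 (SE 0.06, limma adjusted p = 0.527). In TPM the groups overlapped, since DT 2 lay above PBS 3. Ndufa3, a small subunit of the membrane arm, went the other way, with 247, 252 and 282 TPM after PBS and 282, 290 and 319 TPM after DT. Its groups did not overlap by CPM, while in TPM DT 1 lay just below PBS 3, and the log2 fold change was 0.18 (SE 0.09, limma adjusted p = 0.526). Ndufb10, the most abundant subunit of the complex, was at 709 ± 40.9 TPM in the PBS group and 685 ± 15.7 TPM in the DT group (SD, n = 3 each). Ndufa11 was the least abundant subunit, with a mean of 31.8 TPM over the 6 libraries.

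Ndufs5 (mm10 chr4:123712710-123718202, minus strand), a small subunit on the side of the intermembrane space, showed how 1 library can set a fold change. Its level was 130, 271 and 282 TPM after PBS and 278, 245 and 292 TPM after DT. PBS 1 stood far below the other 5 libraries. The log2 fold change was 0.32 (95% interval -0.26 to 0.90, limma adjusted p = 0.715), and without PBS 1 it was -0.03. The assembly factors of complex I, which help to build it and are not part of it, had 3 higher and 4 lower means with a median log2 fold change of -0.02. The least abundant, Ndufaf5, which modifies NDUFS7, was at 13.5 ± 1.08 TPM in the PBS group and 14.3 ± 1.05 TPM in the DT group (SD, n = 3 each).

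Complex II, succinate dehydrogenase, is shared with the tricarboxylic acid cycle and is wholly encoded in the nucleus. All 4 of its genes had a slightly lower mean after DT, with log2 fold changes from -0.05 to -0.02. Sdha, the flavoprotein that oxidizes succinate, was at 325, 312 and 330 TPM after PBS and 314, 317 and 312 TPM after DT, so the groups overlapped. Sdhb, the iron-sulfur subunit, was at 228, 223 and 217 TPM after PBS and 222, 217 and 224 TPM after DT, again with overlap. The 95% interval of the log2 fold change was -0.18 to 0.08 for Sdha and -0.16 to 0.12 for Sdhb. Sdhd, a membrane anchor, had the lowest level of the complex, at 110 ± 2.2 TPM in the PBS group and 109 ± 5.90 TPM in the DT group (SD, n = 3 each).

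Complex III passes electrons from ubiquinol to cytochrome c. Of its 8 subunits among the members, 1 (Uqcrh) had a higher and 7 a lower mean after DT, and the median log2 fold change, -0.09, was the lowest of the 5 complexes. Uqcrc1 (mm10 chr9:108936633-108949623, plus strand), a core protein on the matrix side, was at 430, 442 and 433 TPM after PBS and 415, 388 and 391 TPM after DT. Every DT library was below every PBS library. Its log2 fold change was -0.14 (SE 0.06, 95% interval -0.28 to -0.01), with an unadjusted p of 0.0424 and an adjusted p of 0.464 from limma, the smallest of any member. The other core protein, Uqcrc2, was the least abundant of these 8 at 128 ± 1.2 TPM in the PBS group and 122 ± 5.19 TPM in the DT group (SD, n = 3 each). Uqcrfs1, the Rieske iron-sulfur protein, was at 208, 208 and 214 TPM after PBS and 207, 194 and 196 TPM after DT. In TPM the highest DT library lay just below the lowest PBS library, but by CPM the groups overlapped, and the log2 fold change was -0.09 (95% interval -0.24 to 0.05). Uqcrb, the most abundant of these 8, was at 465 ± 21.9 TPM in the PBS group and 438 ± 10.3 TPM in the DT group (SD, n = 3 each), with no overlap by CPM and a log2 fold change of -0.10 (limma adjusted p = 0.642).

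Complex IV, cytochrome c oxidase, has its catalytic center in subunits of the mitochondrial genome, and the nuclear subunits include pairs of isoforms that tissues use differently. Of 18 subunit genes among the members, 14 were tested, 7 with a higher and 7 with a lower mean after DT, and the median log2 fold change was 0.0003. Cox8a, the most abundant, was at 1232, 1237 and 1269 TPM after PBS and 1226, 1233 and 1261 TPM after DT. The groups lay over each other, with a 95% interval of the log2 fold change from -0.14 to 0.10.

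Cox4i1, the general isoform of subunit 4, was at 717, 732 and 757 TPM after PBS and 709, 648 and 687 TPM after DT. In TPM all DT libraries were lower, while by CPM the groups overlapped, and the log2 fold change was -0.12 (SE 0.06, limma adjusted p = 0.548). Its alternative, Cox4i2, known from lung and from low oxygen, was at 46.0, 28.7 and 42.2 TPM after PBS and 39.2, 36.6 and 38.4 TPM after DT. PBS 2 was the lowest library and PBS 1 the highest, and the DT libraries lay between them. Cox4i2 made up 5.03% ± 1.15 (SD, n = 3) of the TPM of subunit 4 after PBS and 5.29% ± 0.0506 (SD, n = 3) after DT. Markers of pericytes and mural cells were also lowest in PBS 2, at 893 TPM, beside 1049 to 1465 TPM in the other libraries, and their part in the level of Cox4i2 was not tested.

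The families of subunits 6a, 6b, 7b and 8 had a main member in astrocytes as well. Of the subunits in the 7a family, Cox7a2 was the main one, with Cox7a1 at a mean of 9.64 TPM. Cox7a2l of this family, which is not a subunit, was near the level of Cox7a2. Cox6a1 made up at least 99.3% of the TPM of subunit 6a in each library, with 285 ± 15.9 TPM in the PBS group and 298 ± 20.7 TPM in the DT group (SD, n = 3 each). Cox6b1, at 246 ± 45.1 TPM in the PBS group and 245 ± 19.6 TPM in the DT group (SD, n = 3 each), made up 86.5% to 91.1% of subunit 6b, and the rest was Cox6b2, an isoform known from testis. Cox7b made up at least 98.8% of subunit 7b and Cox8a at least 99.6% of subunit 8. In the subunit 7a family, Cox7a2 was at 99.3 ± 12.4 TPM in the PBS group and 100.3 ± 8.35 TPM in the DT group (SD, n = 3 each). Cox7a2l, known as a factor for supercomplexes of complexes III and IV, was at 97.4 ± 5.18 TPM and 92.8 ± 3.39 TPM. Its function in these mice was not tested. The 95% intervals of the log2 fold change were -0.27 to 0.28 for Cox7a2 and -0.26 to 0.09 for Cox7a2l.

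Other isoforms known from heart, skeletal muscle or testis were low or at 0. Cox7a1 (mm10 chr7:30184144-30186078, plus strand), the muscle isoform of subunit 7a, had 21, 40 and 20 reads (7.31, 9.74 and 7.27 TPM) after PBS and 37, 42 and 28 reads (12.6, 11.1 and 9.88 TPM) after DT. In CPM and in TPM, each DT library lay above each PBS library, with a log2 fold change of 0.41 (SE 0.28, limma adjusted p = 0.667), the highest and least precise of the members. The 4 members under the filter were Cox6a2, Cox7b2, Cox8b and Cox8c. Cox8c had 0 reads in all 6 libraries. Cox8b had 5, 0 and 5 reads after PBS and 5, 20 and 8 after DT, and Cox7b2 had 0, 18 and 9 reads after PBS and 12, 8 and 4 after DT, with overlap in both. Cox6a2, the muscle isoform of subunit 6a, had 3, 15 and 4 reads after PBS and 0, 0 and 0 after DT. In the fit with no filter, the smallest adjusted p of any member, 0.180 from limma, was that of Cox6a2, and a count of 0 allows up to 3 reads per library, as many as PBS 1 had.

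Ndufa4, named for complex I and now counted as a subunit of complex IV, was at 171, 200 and 206 TPM after PBS and 196, 190 and 214 TPM after DT. Its paralog Ndufa4l2, known as a target of hypoxia-inducible factor and abundant in pericytes, was at 24.8, 16.2 and 23.3 TPM after PBS and 16.2, 17.5 and 25.03 TPM after DT. Neither pair of groups was separated, and the share of Ndufa4l2 in the pair was 10.1% ± 2.58 (SD, n = 3) after PBS and 8.86% ± 1.46 (SD, n = 3) after DT. The matrix-side subunits Cox5b and Cox5a were at means of 1012 and 86.9 TPM, 11.6-fold apart.

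**Figure D4:**
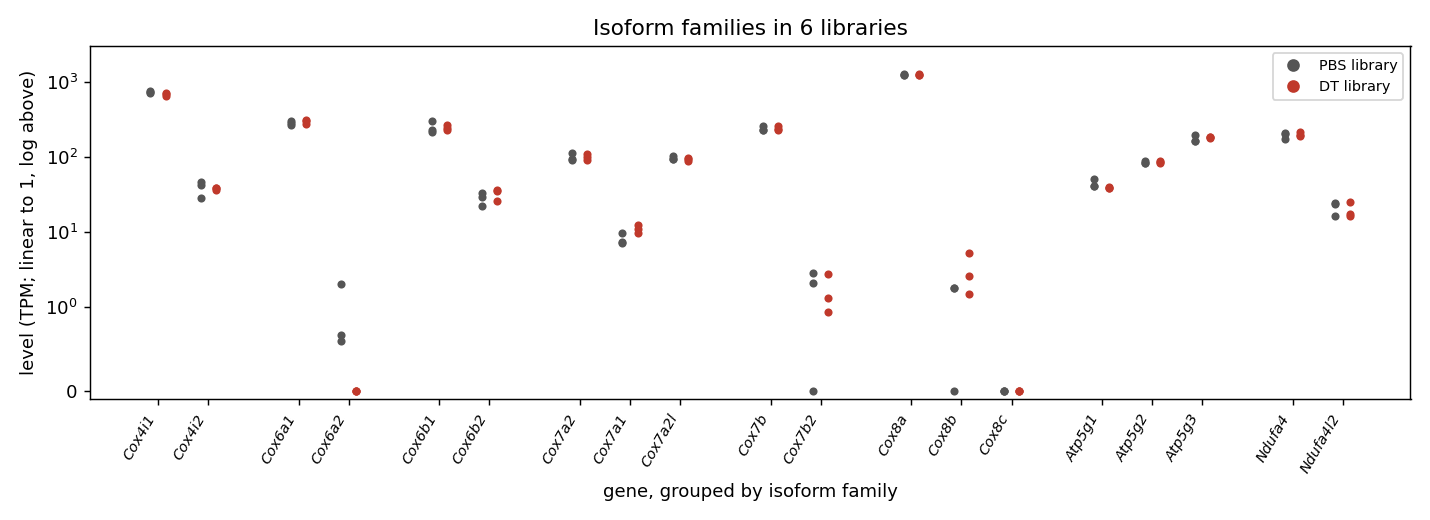
Level in TPM (vertical axis, linear up to 1 and log above) of the members of 8 isoform families in 3 PBS libraries (grey points) and 3 DT libraries (red points). Each complex IV family has 1 main subunit isoform, and in 7a Cox7a2l, which is not a subunit, lies near Cox7a2. Cox8c is at 0 in all libraries, and Cox6a2 is at 0 after DT only.

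Complex V has a catalytic head, a central stalk, a peripheral stalk and a membrane ring. Of its 15 subunits among the members, 4 had a higher and 11 a lower mean in the DT group, and their median log2 fold change was -0.06. Atp5b (mm10 chr10:128083273-128090391, plus strand), the catalytic beta subunit and the most abundant member of all, was at 1771, 1735 and 1659 TPM after PBS and 1740, 1611 and 1581 TPM after DT. DT 1 lay inside the PBS range and the other DT libraries below it, with a log2 fold change of -0.08 (95% interval -0.24 to 0.08). Atp5a1, the alpha subunit, was at 840, 874 and 890 TPM after PBS and 890, 827 and 819 TPM after DT. DT 1 was the highest library and DT 3 the lowest, with an interval from -0.20 to 0.09.

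A pair of small complex V subunits had higher means after DT. Atp5e, the epsilon subunit of the central stalk, was at 91.6, 75.6 and 82.2 TPM after PBS and 106, 90.03 and 95.1 TPM after DT, with overlap between PBS 1 and DT 2. Its log2 fold change was 0.21 (SE 0.13, limma adjusted p = 0.642), and 0.13 without DT 1 or without PBS 2. Atp5k, the e subunit of the membrane part, was at 345, 380 and 615 TPM after PBS and 463, 566 and 557 TPM after DT. PBS 3 was the highest of all and the other PBS libraries were the lowest, with a log2 fold change of 0.27 (SE 0.19, limma adjusted p = 0.672). It was 0.53 without PBS 3 (limma adjusted p = 0.101), 0.12 without PBS 1 and 0.17 without PBS 2. Atp5s, known as coupling factor B and no subunit proper, was the least abundant of the Atp5 genes at 14.7 ± 1.75 TPM in the PBS group and 13.5 ± 2.46 TPM in the DT group (SD, n = 3 each).

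The membrane ring is built of c subunits, which come from Atp5g1, Atp5g2 and Atp5g3. These genes encode the same mature protein with different import sequences, and each has a promoter of its own. The 150 bases before the RefSeq transcription start (build GRCm38.p6) of each, all on the minus strand, are shown 5′ to 3′ because the genes differ in level for 1 protein. The stretch of Atp5g1 lies at chr11:96075632-96075781, that of Atp5g2 at chr15:102671048-102671197 and that of Atp5g3 at chr2:73911327-73911476. In GENCODE M21 the Atp5g2 gene spans chr15:102662864-102672352 and so holds the whole stretch. The Atp5g1 gene (chr11:96068852-96075670) holds part of its stretch. Matches in these windows depend on the start chosen. Capitals mark a pair of overlapping matches, on either strand, to the NRF1 motif GCATGCGC (Atp5g2) and, on the other strand, to the motif CAAGGTCA of estrogen-related receptors (Atp5g3).
Atp5g1: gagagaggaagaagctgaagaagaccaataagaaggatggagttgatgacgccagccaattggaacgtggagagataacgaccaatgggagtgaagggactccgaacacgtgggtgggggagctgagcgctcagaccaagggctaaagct
Atp5g2: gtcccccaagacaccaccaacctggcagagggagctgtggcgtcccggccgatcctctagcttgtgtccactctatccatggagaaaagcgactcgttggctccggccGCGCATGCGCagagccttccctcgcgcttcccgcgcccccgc
Atp5g3: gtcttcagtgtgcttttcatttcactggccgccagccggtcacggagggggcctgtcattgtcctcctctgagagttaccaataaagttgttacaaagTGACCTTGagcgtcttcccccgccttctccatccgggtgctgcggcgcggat

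Of these, Atp5g3 was the main source of c-subunit RNA. Atp5g3 was at 165, 163 and 195 TPM after PBS and 177, 184 and 185 TPM after DT, or 57.4% ± 3.65 (SD, n = 3) and 59.2% ± 0.307 (SD, n = 3) of the family. Atp5g2 made up 28.1% of the family in each group, with a 95% interval of its log2 fold change from -0.20 to 0.22. Atp5g1 was at 50.5, 41.2 and 40.6 TPM after PBS and 39.5, 38.6 and 38.9 TPM after DT. All DT libraries lay below all PBS libraries, by little except against PBS 1, and the log2 fold change was -0.18 (SE 0.13, limma adjusted p = 0.686), or -0.07 without PBS 1. Its share was 14.6% ± 1.94 (SD, n = 3) after PBS and 12.7% ± 0.445 (SD, n = 3) after DT.

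Promoters of 250 bases before to 50 after the start were available for 73 members, tested or not. The NRF1 motif GCATGCGC was found on either strand in 12 of them (16.4%: Atp5g2, Atp5k, Atp5l, Cox6a1, Ndufa11, Ndufa6, Ndufa8, Ndufaf4, Ndufaf5, Sdhb, Uqcr11 and Uqcrc1), beside 5.54% of the 11328 tested genes with a promoter. NRF1 and the ETS factor GABP are known regulators of respiratory chain genes. The ETS motif CCGGAAG was found in 23.3% of members and 17.8% of tested genes. The YY1 motif AAGATGGC was in 12.3% of members and 4.77% of tested genes, the CAAGGTCA motif in 5.48% and 1.40%, and TATAAA in 9.59% and 8.77%. Members with TATAAA include Cox7b2 and Cox8b, which were under the filter, so for this motif the sets are not alike. These are matches of letters in a window, given as a description.

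Whether the groups overlapped was counted on CPM for all tested members. The values of the 3 DT libraries were all above those of the 3 PBS libraries in 2 members (Ndufa3 and Cox7a1), or 2.27% of members beside 8.75% of all genes tested. They were all below in 8 members (Ndufs1, Ndufs7, Ndufa10, Uqcrc1, Uqcr10, Uqcrb, Atp5c1 and Atp5g1), or 9.09% beside 7.57%. Uqcr10 is a small subunit of complex III and Atp5c1 the gamma subunit of the central stalk of complex V. Of these 8, 3 belong to complex I, 3 to complex III and 2 to complex V, with 36, 8 and 15 subunits tested.

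The libraries themselves differed in their member levels within each group. PBS 3 was the highest of the 6 libraries for 35 members (39.8%, beside 16.7% of all genes tested), and DT 2 was the lowest for 34 members (38.6%, beside 13.6%). The median member deviated from its mean over the 6 libraries by 0.07 on the log2 scale in PBS 3 and by -0.06 in DT 2, while the median of all genes lay within 0.01 of 0 in each library. The median log2 fold change of the members was -0.01 without PBS 3, with 39 higher and 49 lower means, and -0.02 without DT 2, with 38 and 50. With all libraries it was -0.04. PBS 3 and DT 2 are the extremes, so a smaller excess of lower means without either follows from that choice. Without PBS 2 the median was -0.06, with 21 higher and 67 lower means. Without DT 1 it was -0.06, with 26 and 62. Without PBS 1 or without DT 3 it stayed at -0.04. The SD between libraries of the median member within groups was 0.05. This is the spread of single libraries and not the error of a difference between means of 3, so the median difference cannot be judged by it.

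**Figure D5:**
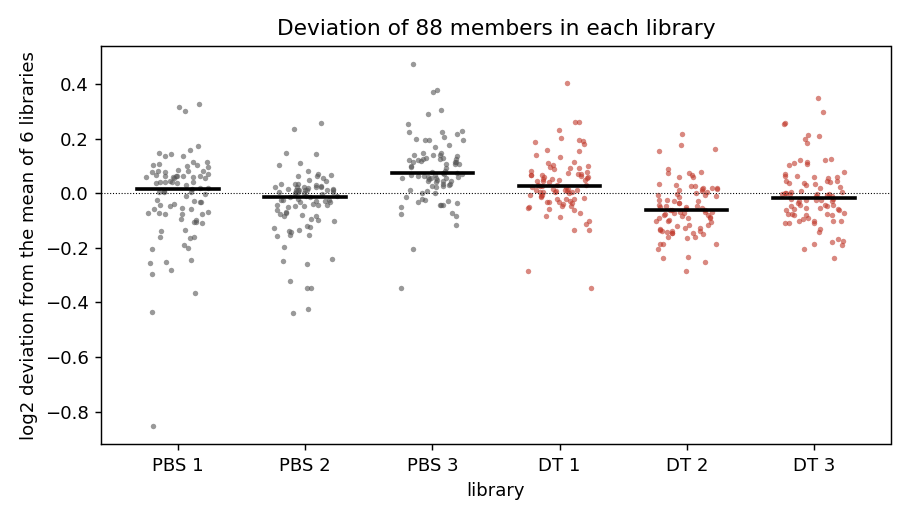
Deviation of each of the 88 tested members from its mean over 6 libraries (vertical axis, log2(CPM + 0.1)) by library, with PBS libraries in grey and DT libraries in red. Horizontal bars are medians, highest in PBS 3 at 0.07 and lowest in DT 2 at -0.06.

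Other genes of mitochondrial energy metabolism and of protein synthesis were read in the same fit, and none was called. Of 10 nuclear genes for subunits, electron carriers and regulators outside the name pattern, 5 had a higher and 5 a lower mean after DT. They include Cyc1, the cytochrome of complex III, at 108 ± 8.16 TPM in the PBS group and 106 ± 2.73 TPM in the DT group (SD, n = 3 each), and cytochrome c itself, Cycs, at 87.7 ± 10.04 TPM and 84.8 ± 0.842 TPM. Of 41 assembly factors outside the pattern, 16 had a higher and 25 a lower mean, with a median log2 fold change of -0.04. Of 18 genes of the tricarboxylic acid cycle and pyruvate dehydrogenase, 6 had a higher and 12 a lower mean (median -0.06), and of 14 genes of the mitochondrial membranes and import, 4 and 10 (median -0.02). Mitochondrial ribosomal proteins had 41 higher and 36 lower means (median 0.02), cytosolic ribosomal proteins 67 and 27 (median 0.04), and glycolytic enzymes 10 and 7 (median 0.03).

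Of 13 transcription regulators of mitochondria, 8 had a higher and 5 a lower mean after DT. Ppargc1a, which encodes PGC-1α, a coactivator that raises the transcription of respiratory chain genes, was the member of this list nearest to a call. It was at 78.7, 75.3 and 74.4 TPM after PBS and 63.5, 59.0 and 62.1 TPM after DT, with every DT library below every PBS library. The log2 fold change was -0.32 (SE 0.07, 95% interval -0.47 to -0.17), with an adjusted p of 0.0996 from limma. With DESeq2 (adjusted p = 0.00579) and the exact test of edgeR (adjusted p = 0.0371) it passed the threshold. In the remaining alternatives it did not, with adjusted p from 0.0512 to 0.369 and log2 fold changes from -0.36 to -0.28. Mrps6, a protein of the mitochondrial ribosome, was at 49.9, 67.6 and 61.0 TPM after PBS and 98.8, 89.6 and 87.96 TPM after DT, again without overlap, with a log2 fold change of 0.62 (SE 0.12, limma adjusted p = 0.0866). Foxred1, an assembly factor of complex I, was at 29.3, 27.7 and 24.2 TPM after PBS and 18.8, 21.0 and 16.3 TPM after DT, with a log2 fold change of -0.54 (SE 0.13, limma adjusted p = 0.156). Ppargc1a, Mrps6 and Foxred1 were chosen after their values were seen.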

How the data were processed

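RNA of 3 PBS and 3 DT libraries was sequenced. Per the labels and the methods, the authors trimmed reads with Trim Galore 0.5.0, mapped them to mm10 with HISAT2 2.1.0, removed ribosomal reads with bedtools 2.25.0, and made tables with StringTie 1.3.5 and edgeR 3.24.3. The deposited signal is CPM relative to TMM-scaled library sizes, from which whole reads were recovered (100% of values, within 0.001 CPM), and TPM was deposited beside it. The authors' deposited columns of p-value, q-value and log fold change (base not given in the header, taken as log2) were left unused. Plain CPM had been assumed in the design.

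The two-sided test was that of limma 3.58.1 (R 4.3.3), on log2(CPM + 0.1) of the 15137 genes whose mean reached 0.5 CPM, with a trended variance and Benjamini-Hochberg adjustment. The added 0.1 makes fold changes of low genes too small. In simulated data for 15120 genes, 97.4% of 196 changed genes were called and 4.98% of calls were false. Whether differences as small as those of the members would be called was not tested. Alternatives were pseudocounts of 0.5 and 1, quantile normalization, TPM in place of CPM, no filter or a filter at 2 CPM, an untrended variance, a replicate block, each library left out, and edgeR 4.0.16 and DESeq2 1.42.0 on recovered reads. Members and lists were chosen with earlier results of these data known. Named were the 5 members with the smallest p in each direction, the extremes of level per complex, cofactor and catalytic subunits, isoform families and members under the filter. A total of 27 gene names had been turned into dates. Coordinates and lengths are from GENCODE M21 (mm10), and promoters from RefSeq. Exons of 5 members overlap another gene on the same strand, and reads of members with processed pseudogenes may be shared with them.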

Additional observations from a re-analysis of the deposited data

How the results depend on the processing

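In the 17 alternatives, 0 members were called higher or lower, and the lowest adjusted p of a member was 0.101 (Atp5k, without PBS 3). The median log2 fold change of the members was below 0 in each, from -0.06 (without PBS 2) to -0.01 (without PBS 3), and -0.02 on TPM. Subunits alone gave -0.04. Sums per complex without the most abundant member kept their direction. The number of all genes called moved more: 227 higher and 98 lower with DESeq2, 191 and 72 with the exact test of edgeR, 35 and 11 without a variance trend, against 84 and 24. With 1 library left out, 39 to 72 were higher and 9 to 20 lower. Called higher were 39 without DT 1 and 40 without DT 2, and called lower 10 without DT 2, 11 without PBS 1, 9 without PBS 2 and 10 without PBS 3. With the replicate number as a block, 109 genes and 0 members were called. The smallest limma adjusted p of a member was then 0.296, against 0.464 in the main fit. An unadjusted limma p under 0.05 was reached by 3 members, against 1. On TPM 4 members reached it, without DT 1 there were 6 and without PBS 3 there were 5. In the other limma alternatives 0 to 2 did. Same-numbered libraries correlated in their deviations at 0.115, 0.0105 and 0.118. Other pairs were not set beside these, so the values cannot decide whether the numbers mark shared experiments. The main fit used no block, and the block changed no call of a named member.

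Directions were followed for the named members, and among these they reversed only where differences were near 0 or set by 1 library. Unnamed members were not followed by name. Over all 88 tested members, the count with higher means was 28 with all libraries, 39 without PBS 3 and 21 without PBS 2. Quantile normalization gave log2 fold changes of -0.011 for Atp5g2 and -0.016 for Cox7a2, and TPM gave 0.00996 for Cox6b1. With libraries left out in turn, Atp5g2 ranged from -0.013 to 0.054, Atp5g3 from -0.0078 to 0.13, Cox4i2 from -0.23 to 0.13, Cox6b1 from -0.083 to 0.14, Cox7a2 from -0.071 to 0.11, Cox7b from -0.050 to 0.059, Ndufa4 from -0.023 to 0.095, Ndufs5 from -0.028 to 0.51, Ndufv1 from -0.11 to 0.0094, Sdhb from -0.043 to 0.0063 and Sdhd from -0.085 to 0.013. The cause was not tested. With 3 libraries per group, an exact permutation test of a single value cannot go below a p of 0.1, and the widest intervals were those of Cox7a1, which had few reads, and of Ndufs5, which did not.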

Other observations

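Across the 87 members with an annotated transcript length, the log2 fold change and the length had a Pearson r of -0.30 and a Spearman rho of -0.32. These lengths are medians over annotated transcripts and can differ from those of the expressed RNA. Ndufs1 is listed at 651 bases and Atp5g1 at 2675.5. Yet Ndufs1 had means of 144 CPM and 154 TPM, and Atp5g1 11.4 CPM and 41.5 TPM, which makes Ndufs1 the longer. The relation with the listed length is therefore unsure. That of the fold change with the mean TPM was weaker, with r of -0.16 and rho of -0.14 over 88 members. These points share the same 6 libraries and genes are not independent replicates, so no p-value is given. The short members Ndufa3 (433 bases), Atp5e (421 bases), Atp5k (322 bases) and Cox7a1 (439 bases) are among the 5 with the smallest p-values in the direction of higher levels after DT. Other members of like length had lower means, with log2 fold changes of -0.12 for Uqcr10 (434 bases), -0.05 for Ndufa6 (382 bases) and -0.02 for Uqcr11 (445 bases).

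Exons of 28 of the 91 members with coordinates overlap those of a gene on the other strand, and the library kit keeps strand. The members lie on 19 chromosomes.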
